A study of Mus musculus with 10 samples.

Results

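Chga, Chgb, Scg2, Scg3, Scg5, Pcsk1, Pcsk2, Cpe, Syp and Snap25 encode proteins of the regulated secretory pathway of endocrine cells. These 10 of the 55276 genes in the expression table were chosen by symbol, with earlier results of these data known. The choice drew on their textbook roles in the make-up of the secretory granule, the cutting of prohormones and the release of the cargo. They were followed in 10 RNA sequencing libraries of sorted epithelial cells from the corpus, the acid-secreting body of the mouse stomach. All mice were C57BL/6, 6 to 8 weeks old, and all carried Iqgap3-2A-tdTomato, an allele that couples a red fluorescent protein to Iqgap3, a scaffold protein gene. They were either wild type (WT) or carried R122C, a change of 1 amino acid in the transcription factor RUNX3. Cells that were EpCAM-positive and excluded DAPI were sorted into IQ3pos cells, which had tdTomato, and IQ3neg cells, which had none. There were 3 libraries of each fraction from WT mice and 2 of each from R122C mice. Cells of 3 mice, or of 4 for both libraries of WT replicate 2, were pooled for a library, and a p-value here reflects how far pools vary, not single animals. The sort marker is a reporter and not a cell type, and each fraction is a mixture of epithelial cells.

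Hormone-producing cells of the gut pack peptides and amines into dense-core granules that are held in the cell until a stimulus arrives. Granins condense in the Golgi network and form the granule matrix together with prohormones, convertases cut the prohormones inside the maturing granule, and a carboxypeptidase trims the cut ends. Release needs SNARE proteins on the granule and on the plasma membrane, which zip together and fuse them. In the corpus the endocrine cells include the histamine-storing enterochromaffin-like cells, ghrelin cells and somatostatin cells, all scattered singly among the gland epithelium.

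Values are log2 CPM (counts scaled to a common library size) as the authors deposited them. Their table gives 0 for any gene under 1 CPM, so a listed 0 is not an absence of reads. The totals by which counts had been scaled to CPM, derived from the values, ran from 47432129 to 264816271 reads. This makes 1 CPM worth 47.4 to 264.8 reads. Listed CPM summed to 1036670 to 1053760 in a library, so these are scaling totals and not full read counts. Between 11879 and 14811 genes reached 1 CPM in a library. The epithelial label matched the markers, with Epcam at 7.64 to 9.25 log2 CPM in all 10 libraries. Parietal and chief cell genes of the corpus were also high, with Atp4b, a subunit of the acid pump, at 8.23 to 11.53 and Cblif, the gastric intrinsic factor, at 9.19 to 13.97. The WT IQ3neg replicate 1 library stood apart: Clps, which encodes the pancreatic enzyme cofactor colipase, took 32.1% of its listed reads. The remaining IQ3neg libraries gave Clps 9.23% to 12.9%, and the IQ3pos libraries 0.323% to 2.91%.

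The 10 genes lie on 7 chromosomes of GRCm38. Chga is at chr12:102554969-102565028, Scg2 at chr1:79434669-79440120, Scg3 at chr9:75643189-75684056, Pcsk1 at chr13:75089826-75134861, Cpe at chr8:64592542-64693054 and Syp at chrX:7638471-7653256. Chromosome 2 holds the other 4, with Scg5 at chr2:113776362-113829121, Chgb at chr2:132781278-132795079, Snap25 at chr2:136713453-136782428 and Pcsk2 at chr2:143546156-143816285. Scg2, Scg3, Scg5 and Cpe are on the minus strand and the others on the plus strand.

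The promoters of 8 of the 10 genes were at hand in RefSeq (GRCm38.p6). The cAMP response element TGACGTCA, the palindrome bound by CREB, was searched on both strands in the 250 bases before each RefSeq start. It was present in Chgb, Scg2 and Pcsk1, 3 of the 8, and in 1.55% of all 32851 promoters. Its last base was at -65 in Chgb, -61 in Scg2 and -71 in Pcsk1, counted back from the RefSeq start. Its core TGACG, which each full element holds once per strand, was present in 7 of the 8 and in 17.8% of all promoters. The 100 bases before the RefSeq start are shown for these 3 genes, because the same 8 letters sit at nearly the same distance from it. They are also shown for Chga, the highest of the 10 per length in IQ3neg, which held only the core. Capitals mark TGACGTCA or the core TGACG, and each sequence is written in the direction of its gene. The windows are chr12:102554841-102554940 (plus strand) for Chga, chr2:132781542-132781641 (plus) for Chgb, chr1:79440027-79440126 (minus) for Scg2 and chr13:75089757-75089856 (plus) for Pcsk1. RefSeq starts differ from the gene coordinates given above. By those coordinates the Chgb window lies wholly within its gene, that of Scg2 mostly and that of Pcsk1 in part. The similar distance of the element therefore holds for the RefSeq starts only.
Chga: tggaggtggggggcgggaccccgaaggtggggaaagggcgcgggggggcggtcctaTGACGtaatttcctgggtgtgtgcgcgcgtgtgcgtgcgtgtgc
Chgb: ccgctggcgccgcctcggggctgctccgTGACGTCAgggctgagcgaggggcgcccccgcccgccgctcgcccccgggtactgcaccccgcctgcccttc
Scg2: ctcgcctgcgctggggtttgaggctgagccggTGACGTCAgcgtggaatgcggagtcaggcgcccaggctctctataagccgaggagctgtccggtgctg
Pcsk1: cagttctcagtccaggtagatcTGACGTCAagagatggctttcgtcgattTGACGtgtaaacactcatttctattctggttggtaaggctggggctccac
These matches describe letters and not binding, and nothing in these libraries measured binding. CANNTG, the general E-box, was in 5 of the 8 and in 66.2% of all promoters, while CAGATG and TATAAA were in none of the 8 and in 14.4% and 12.4% of all. Of the half-site cores of RE1, the element of the repressor REST, CAGCACC was in 2 of the 8 (5.73% of all) and GGACAGC in 1 (5.28%). In Scg2 both cores adjoined on the opposite strand, directly before the RefSeq start. The joined string of both cores, chosen after the hits were seen, was found in 1 of the 32851 promoters, that of Scg2.

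The first comparison asks how far the endocrine granule genes separate the tdTomato-negative from the tdTomato-positive epithelium. Scg2, Scg3 and Pcsk2 reached 1 CPM in fewer than 2 IQ3pos libraries, so they passed the filter on low values only through IQ3neg and had to differ. Of the other 7 genes, 5 fell in IQ3pos relative to IQ3neg in WT mice (limma, Benjamini-Hochberg adjusted p under 0.05), where 0.726% of the 13773 genes with at least 2 IQ3pos libraries above the floor fell. In R122C mice 5 of these 7 fell, where 0.225% of such genes fell. They were Chga, Chgb, Scg5, Pcsk1 and Snap25 in both genotypes. The 10 genes were chosen with earlier results of these data known, so these counts are not those of an unselected set. Over all 10, 7 were called lower and none higher in each genotype, with Scg3 and Pcsk2 added, where in WT 1.42% of the 17155 genes tested were called lower and 0.606% higher, and in R122C 0.291% and 0.0291%. With 1 library left out, the R122C count of 7 became 1 without either R122C IQ3neg library, and 3 or 4 without WT IQ3pos replicate 2, either R122C IQ3pos library or any WT IQ3neg library. With the title code as a term, the number in the library names that may mark a batch, it became 4.

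The median difference of the 7 genes was -5.36 on the log2 scale in WT and -4.88 in R122C, where all 13773 such genes had a median of 0.36 and 0.23. Groups did not overlap for 5 of the 7 in WT, where 5.4% of such genes were lower in IQ3pos without overlap, and for 7 of the 7 in R122C, where 12.5% were. Over all 10 genes it was 8 in WT, beside 8.07% of all genes tested, and 10 in R122C, beside 14.6%. In these bulk libraries, fewer endocrine cells in a fraction and less of each RNA per endocrine cell cannot be told apart.

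**Figure D1:**
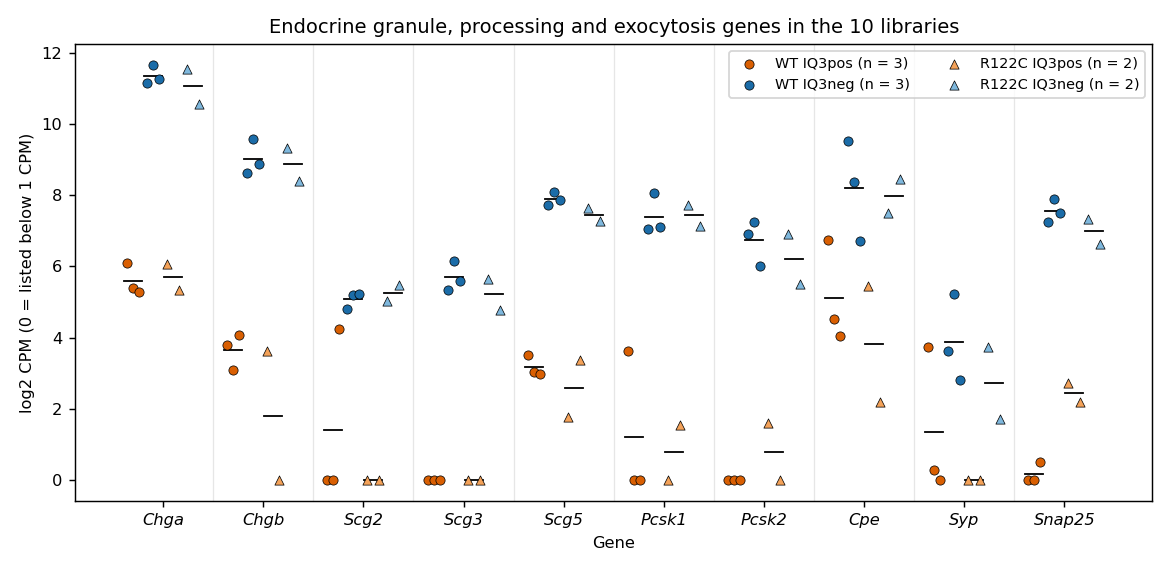
Level of each of the 10 genes in each of the 10 libraries, in log2 CPM, with 1 point per library, orange for IQ3pos and blue for IQ3neg, circles for WT and triangles for R122C; bars are group means and values at 0 are below 1 CPM. The IQ3neg libraries lie above the IQ3pos libraries for every gene except Cpe and Syp in WT, where the groups overlap.

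All 10 genes were above the floor in all 5 IQ3neg libraries, and 5 or 6 of them were above it in any IQ3pos library. Their summed level was 2722 to 5424 CPM in IQ3neg, or 0.260% to 0.517% of the listed reads, and 63.2 to 227.7 CPM in IQ3pos, or 0.00599% to 0.0217%. Wilson intervals of these shares, which cover counting error only, were at most 0.00314 percentage points wide.

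Chga encodes chromogranin A, the acidic matrix protein that drives granule formation and binds calcium and amines. Among the granins it had the highest level per length of exon in IQ3neg. The WT libraries had 11.16, 11.67 and 11.27 log2 CPM in IQ3neg against 6.11, 5.40 and 5.29 in IQ3pos. In R122C it was at 11.56 and 10.57 in IQ3neg and at 6.07 and 5.35 in IQ3pos. Every IQ3neg library exceeded every IQ3pos library by more than 4 log2 units, while WT and R122C overlapped within each fraction. The R122C fraction difference was -5.36 ± 0.474 (SE), a level 41.0-fold lower in IQ3pos (adjusted p = 0.000795, limma). Within title codes it was -5.05, -6.27 and -5.98 in WT and -5.50 and -5.22 in R122C.

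Chgb encodes chromogranin B, the second matrix granin. It was at 8.62, 9.58 and 8.87 log2 CPM in WT IQ3neg against 3.79, 3.10 and 4.08 in WT IQ3pos. R122C IQ3neg had 9.34 and 8.40, against 3.62 and a listed 0 in R122C IQ3pos. The WT difference was -5.36 ± 0.747 (SE; 41.1-fold lower in IQ3pos, adjusted p = 0.00424, limma), and the R122C difference, which rests on the listed 0, had an adjusted p of 0.00674. The fractions were far apart in both genotypes, and the lone R122C library at 0 was R122C IQ3pos replicate 2. The WT call was lost without the pair of WT replicate 1 libraries (adjusted p = 0.062), and the R122C call without that pair (0.065) or without R122C IQ3neg replicate 1 (0.159) or 2 (0.0794).

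Scg3, whose product anchors chromogranin A to the cholesterol-rich granule membrane, was listed at 0 in all 5 IQ3pos libraries. In IQ3neg it was at 5.34, 6.15 and 5.60 log2 CPM in WT and at 5.64 and 4.79 in R122C. All 5 IQ3neg libraries were thus well above the floor that no IQ3pos library reached. No test is given, since the gene passed the filter only through IQ3neg. Centred on its own mean, its pattern over the 10 libraries lay closer to that of Chga than to any other of the 10 genes. The root mean square difference was 0.281 log2 units, but the pattern of Scg3 in IQ3pos is only the floor.

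Scg2 encodes secretogranin II, the precursor of the peptide secretoneurin. It was at 4.82, 5.21 and 5.23 log2 CPM in WT IQ3neg and at 5.04 and 5.47 in R122C IQ3neg. In IQ3pos it was listed at 0 in 4 of 5 libraries and at 4.23 in WT IQ3pos replicate 3. That 1 library was close to the IQ3neg range, and neither genotype passed the test (adjusted p = 0.105 in WT and 0.181 in R122C, limma). Without WT IQ3pos replicate 3 the adjusted p was 0.0281 in WT and 0.0496 in R122C, the latter through the shared estimate of spread, for a gene that passed the filter only through IQ3neg.

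Scg5 encodes the chaperone that holds prohormone convertase Pcsk2 inactive until it reaches the granule. Its level was 7.74, 8.09 and 7.86 log2 CPM in WT IQ3neg against 3.51, 3.04 and 2.98 in WT IQ3pos. In R122C it was 7.65 and 7.27 in IQ3neg against 1.78 and 3.37 in IQ3pos. Like Chga it was above the floor in every library, and the fractions were separated by more than 3 log2 units in both genotypes. The fold was 26.3 in WT (-4.72 ± 0.480 SE, adjusted p = 0.000605) and 29.5 in R122C (-4.88 ± 0.588, adjusted p = 0.00493), by limma. The R122C call was lost without R122C IQ3neg replicate 1 (0.0942) or 2 (0.0597).

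Of the processing enzymes, Pcsk2, the convertase that cuts prohormones at pairs of basic residues late in granule maturation, was at 6.91, 7.26 and 6.03 log2 CPM in WT IQ3neg and listed at 0 in all WT IQ3pos libraries. In R122C it was at 6.93 and 5.50 in IQ3neg and at 1.59 and a listed 0 in IQ3pos. Pcsk1, the convertase that acts earlier on the same kind of site, was at 7.05, 8.05 and 7.10 in WT IQ3neg and at 7.74 and 7.13 in R122C IQ3neg. Both convertases were therefore present in every IQ3neg library. In IQ3pos Pcsk1 was listed at 0 in 3 of 5 libraries, and stood at 3.63 in WT IQ3pos replicate 1 and 1.56 in R122C IQ3pos replicate 2. Pcsk1 fell in both genotypes (adjusted p = 0.00682 in WT and 0.0308 in R122C, limma), and its WT call was lost without WT IQ3neg replicate 2 (0.0596). For Pcsk2 no test is given, for the reason named for Scg3.

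Cpe encodes carboxypeptidase E, which removes the basic residues that the convertases leave behind and is also made outside endocrine cells. Its groups overlapped in WT. In WT IQ3neg it was at 9.53, 8.37 and 6.73 log2 CPM, against 6.75, 4.53 and 4.05 in WT IQ3pos, and the highest IQ3pos library just exceeded the lowest IQ3neg library. In R122C it was at 7.51 and 8.46 in IQ3neg and at 5.45 and 2.21 in IQ3pos, with no overlap. The difference was -3.10 ± 0.933 (SE) in WT (interval -5.13 to -1.07, adjusted p = 0.112) and -4.16 ± 1.14 in R122C (-6.65 to -1.67, adjusted p = 0.227), by limma, and did not pass in either. It was lower in IQ3pos within each title code, at -2.78, -3.84 and -2.68 in WT and -2.07 and -6.25 in R122C.

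The gene outside the 10 whose centred pattern was nearest to that of Cpe was Clps (root mean square difference 0.631 over the 10 libraries). Clps was at 18.35, 16.58 and 16.56 log2 CPM in WT IQ3neg and at 16.87 and 17.04 in R122C IQ3neg. Cpe and Clps were both highest in WT IQ3neg replicate 1 and, in IQ3pos, both in WT IQ3pos replicate 1, and both were lowest in R122C IQ3pos replicate 2. The part of the Clps-rich material in the level of Cpe was not tested. Relative to Chga, Cpe was 1.93 log2 units higher in IQ3pos than in IQ3neg (exact permutation test within genotype, two-sided, p = 0.0667, adjusted over 2 comparisons 0.133), and Scg5 0.76 units higher (exact p = 0.2, adjusted 0.2). Both comparisons were chosen after the values were seen, and the smallest p this permutation can give is 0.0167.

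Of the genes of release, Snap25, which encodes the SNARE of the plasma membrane in neurons and endocrine cells, had the lowest WT adjusted p but for that of Chga. It was at 7.26, 7.89 and 7.51 log2 CPM in WT IQ3neg, whereas WT IQ3pos had 0.51 in replicate 3 and a listed 0 in the other 2 libraries. In R122C it was at 7.35 and 6.64 in IQ3neg and at 2.73 and 2.18 in IQ3pos. The fractions did not come near each other in either genotype (adjusted p = 5.96e-05 in WT and 0.0142 in R122C, limma). The R122C call was lost without R122C IQ3pos replicate 2 (0.0977), WT IQ3neg replicate 2 (0.0645) or 3 (0.0785), or R122C IQ3neg replicate 1 (0.145) or 2 (0.0684).

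Syp, which encodes synaptophysin, a membrane protein of small vesicles used as a general endocrine marker, was the lowest of the 10 per length of exon in IQ3neg. It was at 3.62, 5.22 and 2.82 log2 CPM in WT IQ3neg, against 3.75, 0.27 and a listed 0 in WT IQ3pos. In R122C it was at 3.74 and 1.71 in IQ3neg and listed at 0 in both IQ3pos libraries. WT IQ3pos replicate 1 lay inside the IQ3neg range, and within the title code of that library Syp was 0.13 log2 units higher in IQ3pos. Neither genotype passed (adjusted p = 0.267 in WT and 0.687 in R122C, limma). Chga, Chgb, Scg5, Pcsk1, Cpe and Snap25 were lower in IQ3pos within all 5 pairs of libraries that share a title code. So were Scg2, Scg3 and Pcsk2, which passed the filter only through IQ3neg. The share of all genes lower within all 5 pairs was not computed.

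The R122C call of Pcsk1 was lost in 11 of the 20 other ways of fitting the data. Among them were the omission of any single R122C library, of WT IQ3pos replicate 2 or of any single WT IQ3neg library, with adjusted p between 0.0585 and 0.303, and the title code as a term (0.078). Scg3 and Pcsk2 were also called and lost in 11 of 20 each. Of the 7 genes called in R122C, Chga alone kept its call in all 20.

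**Figure D2:**
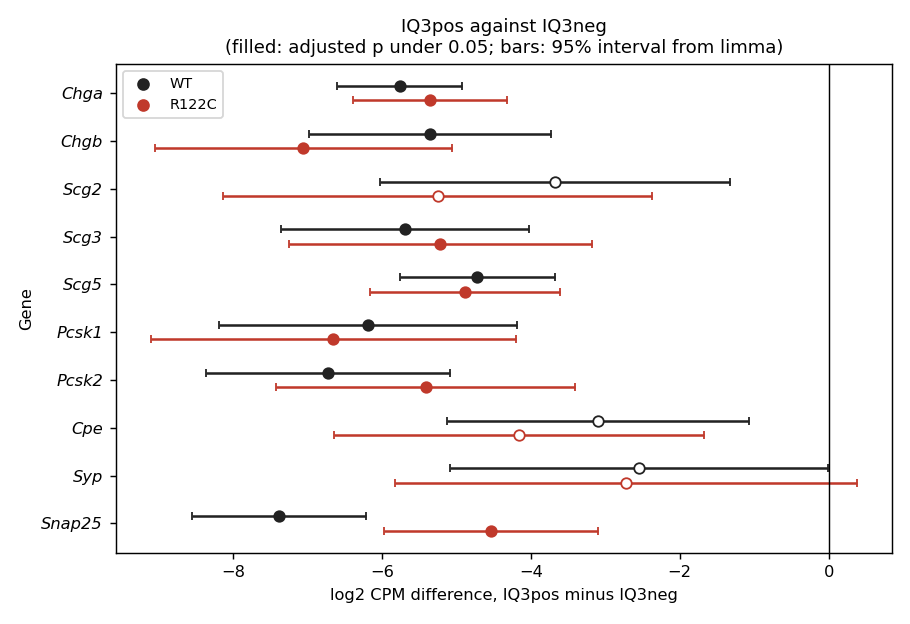
Difference in log2 CPM between IQ3pos and IQ3neg for the 10 genes in WT and in R122C, with 95% intervals from limma; filled points passed an adjusted p of 0.05. In both genotypes 7 genes passed, among them Scg3 and Pcsk2, which passed the filter only through IQ3neg, and Scg2, Cpe and Syp did not. In R122C the 7 became 1 without either R122C IQ3neg library.

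Per length of exon the 10 genes spanned a wide range in IQ3neg, here as CPM per kilobase, median and range over the 5 libraries. The length is the union of all annotated exons of a gene, from 1569 bases for Scg5 to 7910 for Pcsk2, and can exceed that of the transcript in use. Chga led with 893 (551 to 1182), followed by Chgb with 171 (124 to 279), Scg5 with 136 (98.0 to 174) and Cpe with 127 (40.6 to 284). A second tier held Pcsk1 at 23.7 to 47.4 and, by median, Snap25 at 24.0, Scg3 at 17.7, Pcsk2 at 15.2 and Scg2 at 14.7, and Syp was last with 2.36 (0.626 to 7.14). On this scale Chga, Chgb and the chaperone gene Scg5 stood above both convertases and the SNARE, while Scg3 and Scg2 did not. For Scg5 and Snap25 this depends on the length, since in CPM they were at 154 to 273 and 99.7 to 237 in IQ3neg. Scg5 exceeded Cpe in 3 of 5 libraries and Pcsk2 exceeded Scg2 in 3 of 5, so the order within these neighbours was not set beyond the spread. Pcsk1 exceeded Snap25, and Scg3 exceeded Pcsk2, in 4 of 5. The other 5 steps of the order were the same in 5 of 5 libraries.

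**Figure D3:**
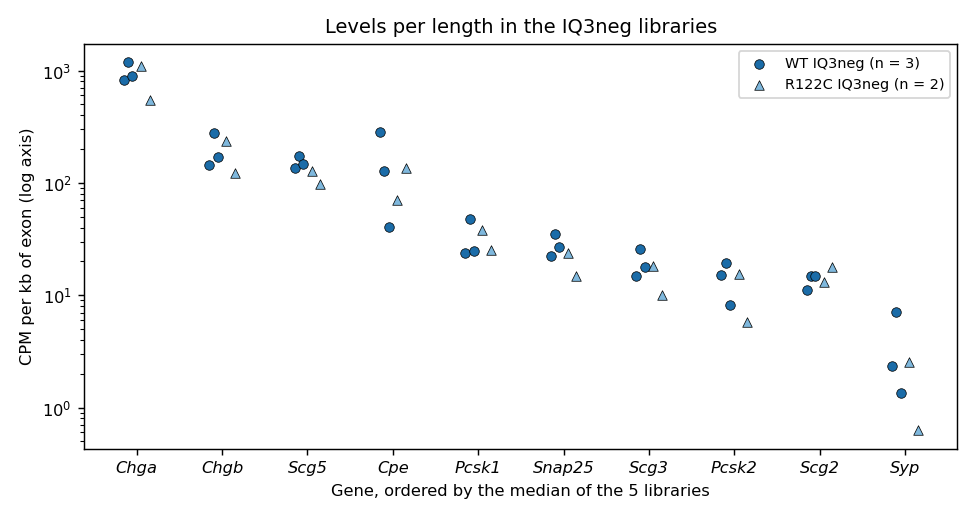
Level per length of the 10 genes in the 5 IQ3neg libraries, as CPM per kilobase of union exon on a log axis, with 1 point per library (circles WT, triangles R122C) and the genes ordered by median. The medians run from 893 for Chga to 2.36 for Syp.

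Chga made up 55.5% to 65.7% of the summed CPM of the 10 genes in IQ3neg, and 30.3% to 64.5% in IQ3pos. Snap25 made up 3.50% to 4.87% of the sum in IQ3neg. Cpe varied most, with 2.83% to 18.0% of the sum in IQ3neg and 7.30% to 47.3% in IQ3pos.

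Other genes of the secretory pathway were followed in 4 lists. Counts and medians are given for genes above the floor in at least 2 IQ3pos libraries, and no gene of these lists was called higher. Over all tested genes, those that passed the filter only through IQ3neg included, 0 of 6, 5 of 11, 8 of 23 and 14 of 45 were higher in WT without passing, in list order. Of all 13773 genes above that floor, 0.726% fell in WT and 0.225% in R122C, with medians of 0.36 and 0.23. Among 4 such genes of other granins and granule cargo, 2 fell in IQ3pos in WT and 1 in R122C, and the median difference was -2.39 in WT. Resp18, an endocrine granule protein, was at 9.34 to 9.79 log2 CPM in WT IQ3neg and 2.71 to 4.46 in WT IQ3pos (-6.24 ± 0.498 SE, adjusted p = 9e-05, limma). It fell in R122C too (-4.44 ± 0.610, adjusted p = 0.0105). Nucb2, the precursor of nesfatin, fell by 2.33 on the log2 scale in WT (adjusted p = 0.00338). Pcsk1n, an inhibitor of Pcsk1, was listed at 0 in all IQ3pos libraries and at 2.91 to 4.74 in IQ3neg, so it passed the filter only through IQ3neg and no test is given.

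Of 10 other processing enzymes, 2 fell in WT and 1 in R122C, with a median of -0.078 in WT and -0.053 in R122C. Furin, the convertase of the constitutive pathway that most cells use, was among them. It was at 8.28, 9.96 and 9.27 log2 CPM in WT IQ3neg and 5.16, 3.92 and 4.49 in WT IQ3pos (-4.65 ± 0.569 SE, adjusted p = 0.0021), with a similar difference in R122C (-4.53 ± 0.696, adjusted p = 0.0184, limma). Pam, which amidates peptide ends, fell in WT (-2.30 ± 0.448, adjusted p = 0.0256) and did not pass in R122C (-1.62, adjusted p = 0.365).

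Of 13 other genes of the granule and vesicle membrane, 1 fell in WT and 1 in R122C, with a median of 0.41 and -0.019. This was Slc18a2, the vesicular monoamine transporter, in both (-3.18 ± 0.396 SE, adjusted p = 0.00224 in WT, and -3.94 ± 0.485, adjusted p = 0.00493 in R122C, limma). Sv2c, a vesicle glycoprotein, was listed at 0 in all IQ3pos libraries and was at 1.85 to 4.33 in IQ3neg, and no test is given. Sypl, the widely expressed relative of Syp, was 0.84 ± 0.434 higher in IQ3pos in WT and did not pass (adjusted p = 0.325).

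The release machinery was the largest list, with 36 such genes, of which 2 fell in WT and 2 in R122C, with a median of -0.46 and -0.24. Cplx2, a complexin that clamps SNARE complexes, was at 6.54 to 7.08 log2 CPM in WT IQ3neg and at most 1.24 in WT IQ3pos (adjusted p = 0.00109 in WT and 0.00493 in R122C, limma). Rab3c, a granule GTPase, fell in both genotypes (adjusted p = 0.0152 and 0.0376). Syt5, a calcium sensor, was listed at 0 in all IQ3pos libraries and was at 4.62 to 6.08 in IQ3neg, and no test is given. Snap23, the relative of Snap25 that serves release in most other cells, was at 6.36 to 6.94 in IQ3pos and 5.94 to 7.44 in IQ3neg. Its difference was 0.28 ± 0.394 in WT (adjusted p = 0.74) and -0.13 ± 0.483 in R122C (adjusted p = 1), next to a Snap25 that fell in both.

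**Figure D4:**
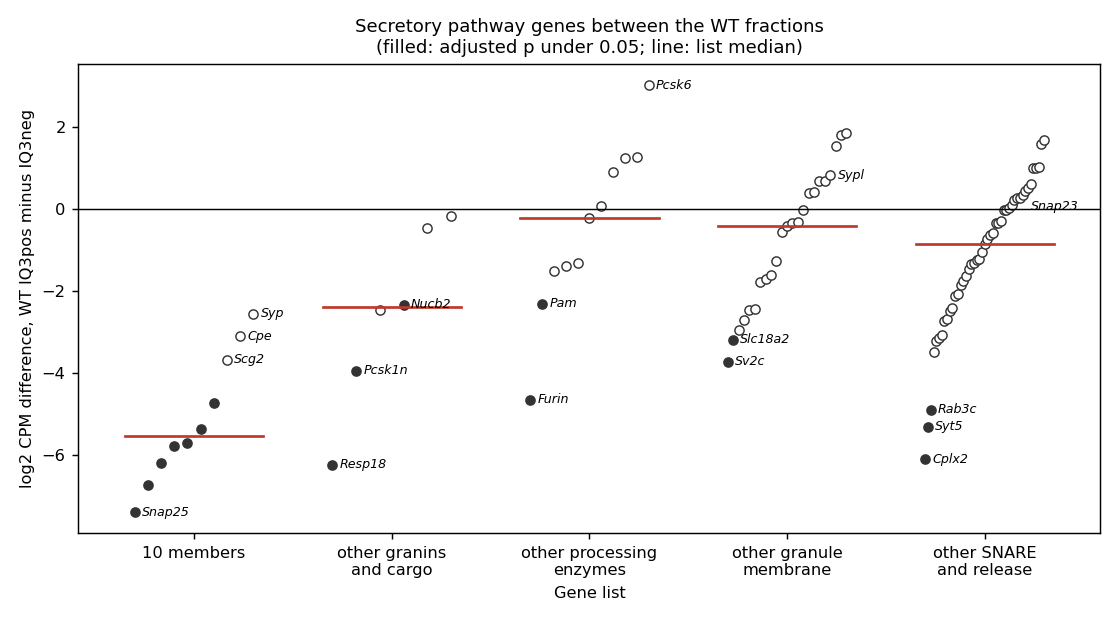
Difference in log2 CPM between WT IQ3pos and WT IQ3neg for every tested gene of the 10 and of 4 other lists of the secretory pathway, 1 point per gene; filled points passed an adjusted p of 0.05 and red lines are medians of all tested genes of a list, those that passed the filter only through IQ3neg included (Scg3, Pcsk2, Pcsk1n, Sv2c and Syt5 among the filled points). These medians are -5.53 for the 10 genes, -2.39 for other granins and cargo, -0.22 for other processing enzymes, -0.40 for the granule membrane and -0.85 for the release machinery.

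Markers of other cells were compared between the fractions in the same fit. Among markers of neurons and glia, Prph, Hand2, Sox10, S100b and Gfap were listed at 0 in all 10 libraries. Ncam1, an adhesion molecule that endocrine cells share, made up 81.9% to 94.2% of the summed level of that list in IQ3neg, and it fell in both genotypes (-5.49 ± 0.629 SE, adjusted p = 0.00151 in WT, and -5.26 ± 0.770, adjusted p = 0.0148 in R122C, limma). The rest of the list summed to 0 to 11.8 CPM in IQ3pos and 10.3 to 49.7 in IQ3neg. Of 10 islet markers, 6 were at 0 in all libraries, Ins1 and Ins2 among them, and the sum was 0 to 9.17 CPM in IQ3pos and 9.47 to 50.8 in IQ3neg. Mast cell markers, of which there were 9, summed to 0 to 51.0 CPM in IQ3pos and 31.5 to 210.0 in IQ3neg, and all that were tested passed the filter only through IQ3neg. The 12 plasma and other immune markers summed to 0 to 321.4 CPM in IQ3pos and 166.6 to 862.7 in IQ3neg, and Igha and Jchain, the 2 called lower in each genotype, passed the filter only through IQ3neg.

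Among pancreatic acinar markers Clps took 96.3% to 99.7% of the summed level in IQ3pos and 98.2% to 99.7% in IQ3neg. The rest of the list summed to 99.6 to 184.7 CPM in IQ3pos and 938.4 to 2131 in IQ3neg, with Cpa1 at 0 in all libraries. Of the 4 acinar markers above the floor in at least 2 IQ3pos libraries, 3 fell in WT and 1 in R122C. Of all 13773 genes above that floor, 0.726% fell in WT and 0.225% in R122C. The 10 tuft cell markers summed to 76.0 to 328.1 CPM in IQ3pos and 267.7 to 1464 in IQ3neg. Of the 8 above the floor in at least 2 IQ3pos libraries, 1 fell in WT and none passed in R122C. The median difference of these 8 was -2.36 in WT and -2.72 in R122C. Without overlap, 3 of the 8 were lower in IQ3pos in WT, beside 5.4% of all genes above that floor. In R122C it was 8 of the 8, beside 12.5%. Markers of dividing cells, 14 in all, summed to 1529 to 4336 CPM in IQ3pos and 118.6 to 753.4 in IQ3neg. They were called higher in IQ3pos for 9 of 14 in WT and 1 of 14 in R122C. Of all 17155 genes tested, 0.606% were called higher in WT and 0.0291% in R122C. Pit and neck cell markers summed to 20186 to 26669 CPM in IQ3pos and 9421 to 20788 in IQ3neg, with 3 of 8 higher in IQ3pos in WT and none passing in R122C. Of the 5 chief cell markers above the floor in at least 2 IQ3pos libraries, 1 fell in each genotype. Their median difference was -0.40 in WT and -0.86 in R122C. Cblif was lower in IQ3pos in both genotypes. Pgc was at 13.20 to 13.58 log2 CPM in IQ3pos and 14.85 to 16.33 in IQ3neg, while Pga5, Gkn3 and Ctss overlapped between the WT fractions. Bhlha15 was listed at 0 in all IQ3pos libraries and passed the filter only through IQ3neg. Chief cell markers summed to 11586 to 16135 CPM in IQ3pos and 43650 to 97804 in IQ3neg. Parietal cell markers summed to 995.6 to 4564 CPM in IQ3pos and 499.7 to 1483 in IQ3neg, and none of the 8 passed in either genotype. The part of these cells in the levels of the 10 genes was not tested. When CPM was computed without the 10 genes and the acinar genes, 7 of the 10 were called in each genotype.

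The second comparison asks whether R122C alters the endocrine granule genes within a fraction. None of the 10 passed in IQ3pos, in IQ3neg or in the interaction of fraction and genotype, and 0% of the 17155 genes were called in each of the 3 (limma). Unadjusted p-values under 0.05 numbered 930, 629 and 444 genes. The median difference of the 10 was -0.52 in IQ3pos and -0.37 in IQ3neg, with all genes at 0 and 0.07.

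In IQ3neg, where all 10 genes were above the floor in every library, the differences ran from -1.16 for Syp to 0.17 for Scg2. Chga differed by -0.30 (interval -1.24 to 0.64) and Snap25 by -0.56 ± 0.601 (SE). These intervals leave room for a change of more than 1.5-fold in either direction for Chga. Within the only title code that both genotypes share (WT replicate 2 and R122C replicate 1, 1 library each), all 10 were lower in R122C, from -0.11 for Chga to -1.48 for Syp. The share of all genes lower in this 1 pair was not computed, so the count is no sign of an effect of R122C. Over all libraries Scg2 (0.17) and Pcsk1 (0.034) had the opposite sign.

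In IQ3pos the largest difference was that of Snap25, at 2.73 and 2.18 log2 CPM in R122C and at 0, 0 and 0.51 in WT. The R122C and WT libraries did not overlap, and the difference was 2.28 ± 0.601 (SE; interval 0.97 to 3.59, unadjusted p = 0.00252, adjusted p = 0.405, limma). It rests on listed zeros and did not pass under any of the other fits, with adjusted p from 0.169 to 1. The interaction of Snap25 was 2.85 ± 0.850 (unadjusted p = 0.0058, adjusted p = 1). Chgb was lower by 1.85 ± 0.835 in R122C IQ3pos (adjusted p = 0.911), through the 1 library at a listed 0, and within the shared title code it was 0.51 higher in R122C. Chga differed by 0.11 (interval -0.83 to 1.05). Scg3 was listed at 0 in all IQ3pos libraries of both genotypes.

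**Figure D5:**
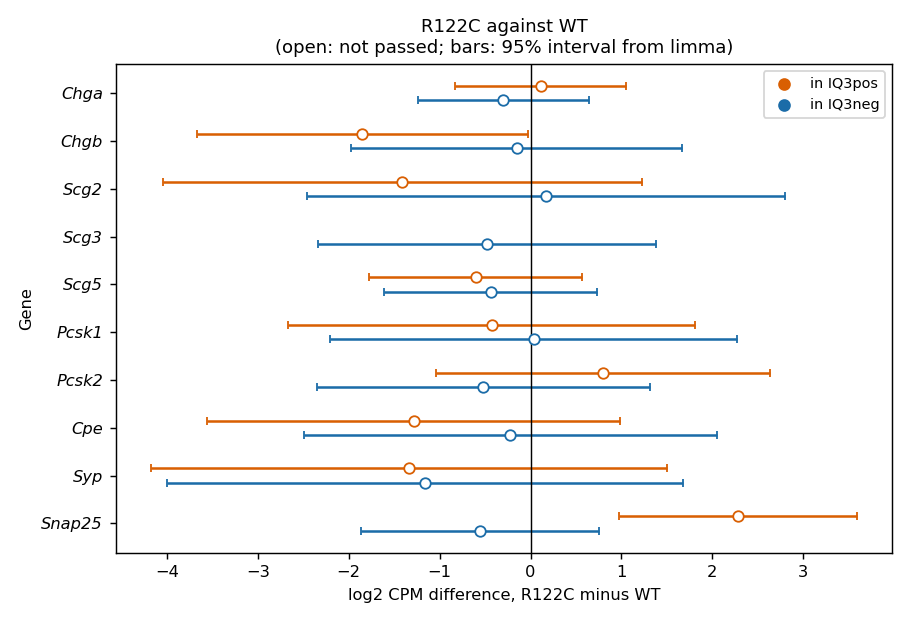
Difference in log2 CPM between R122C and WT for the 10 genes within IQ3pos and within IQ3neg, with 95% intervals from limma; open points did not pass. No gene passed in either fraction, and Scg3 has no value in IQ3pos because it was listed at 0 in both genotypes.

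The genes outside the 10 with the most similar centred patterns over the 10 libraries, 3 for each, differed between the members. For both Chga and Scg3 they were Pwwp3b, Lhfpl5 and Syt5, at root mean square differences of 0.318, 0.380 and 0.385 log2 units from Chga and 0.204, 0.302 and 0.216 from Scg3. The nearest gene was Map1b for Scg5, Pappa2 for Pcsk1 and Car4 for both Pcsk2 and Snap25, with Gcg, the glucagon precursor, also among the 3 for Snap25 (0.786). Between the 10 themselves the closest pair was Chga and Scg3 (0.281), then Pcsk2 and Chga (0.546) and Scg5 and Scg3 (0.581), while Cpe was no closer than 1.33 to any other. These distances are dominated by the fraction difference that the libraries share, and they carry no test. Pwwp3b, Lhfpl5, Syt5 and Scg3 were listed at 0 in all 5 IQ3pos libraries, and Pappa2, Car4, Gcg and Pcsk2 in 4 of 5. These 8 genes passed the filter only through IQ3neg. Their patterns in IQ3pos are mostly the floor, so a small distance from them does not compare levels there.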

How the data were processed

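The data are log2 CPM values that the authors deposited in 1 table (55276 genes, 10 libraries). The submitters' processing notes name the build GRCm38 and the tools edgeR, Subread 2.0.0, featureCounts and STAR 2.7.1a. Whether counting used strand is not stated in these sources, and antisense or overlapping genes may therefore share reads. From the values, the deposited log2 CPM carry no pseudocount and genes below 1 CPM are listed at 0. CPM were whole multiples of 1 read, within 0.05 read for 100% of the values checked, which gave the totals used for scaling. Differences against a listed 0 depend on that floor and are given without a fold.

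Groups and title codes (1909, 1910, 2003 and 2020) came from the labels. limma 3.58.1 in R 4.3.3 was fitted to the deposited log2 values with 4 group means over all 10 libraries and a trend on intensity, with 6 residual degrees of freedom and 6.01 from the prior. A gene needed 2 libraries above the listed 0, which left 17155 to be tested, two-sided, with Benjamini-Hochberg adjustment and a threshold of 0.05, after tests on simulated data. Intervals are at 95%. Exact permutation tests used scipy 1.17.1 under Python 3.11.15. Exon lengths came from a GENCODE annotation of GRCm38 and promoters from RefSeq (GRCm38.p6), whose starts can differ from those of GENCODE.

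The 10 genes and the 18 other lists were chosen with earlier results of these data known. Text names all 10 genes, at most 6 genes per other list by the smallest p in the WT fraction comparison, the paralogues Snap23, Sypl and Furin, defining markers of other cells, and the 3 nearest genes by pattern. Alternatives were scaling, pseudocount, filter, title code, replicate block, trend and the omission of libraries.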

Additional observations from a re-analysis of the deposited data

How the results depend on the processing

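In WT, 6 to 9 of the 10 genes were called under the 20 alternatives (6 to 8 with 1 library left out), all lower in IQ3pos. These counts include Scg3 and Pcsk2, which passed the filter only through IQ3neg. A call was gained for Cpe (adjusted p = 0.0432, limma) when libraries were centred on their median. Scg2 was then called too (0.0273), but it had passed the filter only through IQ3neg, so this call carries no weight. Centring shifted the fraction differences by -0.51 in WT and -0.30 in R122C and the genotype difference in IQ3neg by -0.21. In R122C, 4 of the 10 were called without the pair of WT replicate 1 libraries and 1 to 8 with 1 library left out. The lowest of these, 1, came without R122C IQ3neg replicate 1 or 2. Deviations from the group mean correlated by 0.0808 to 0.162 between same-numbered libraries, so the numbers were not taken to pair them. Among libraries of the other fraction and same genotype, 10 of 10 correlated best with their own number. This is a hint from the data and not from the design. These are not 10 separate matches, since deviations within a group sum to 0 and both R122C pairs share 1 value, 0.105. With a replicate block, as with the title code as a term, 4 of the 10 genes and 31 of all genes were called in R122C.

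Over all genes, WT calls numbered 938 centred, 191 with genes above 0 in at least 1 library, 600 in at least 5, 220 without the WT replicate 1 pair and 78 to 403 with 1 library left out. R122C calls numbered 119 centred, 83 without the 10 genes and acinar genes in CPM, 146 without a trend and 17 to 66 with 1 library left out. Genotype calls in IQ3pos numbered 5 centred, 8 without those genes in CPM, 1 with log2(CPM + 5), 1 with at least 5 libraries, 7 without a trend, 2 without the pair and 0 to 8 with 1 left out, and in IQ3neg 4 with at least 1 library and 0 to 16 with 1 left out. None was among the 10, and the cause was not tested.

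Signs turned only for genotype and interaction values that had not passed. In IQ3neg these were Scg2 (-0.035 centred), Pcsk1 (-0.17 centred, -0.060 without the acinar genes, -0.14 without the pair), Cpe (0.56 with the title code, 0.44 without the pair), Chga (0.076) and Chgb (0.99) with the title code. In IQ3pos it was Pcsk1 (0.78 without the pair). Interactions were 0.045 centred, 0.12 with log2(CPM + 5) and 0.082 without the pair for Scg5, 0.033, 0.014 and 1.16 for Syp, and 0.92 without the pair for Pcsk1. With 1 library left out, IQ3pos values ran from -0.25 to 0.47 for Chga, -1.40 to 0.19 for Scg5, -1.21 to 0.78 for Pcsk1 and -2.90 to 0.34 for Cpe. IQ3neg values ran from -0.80 to 0.20 for Chga, -0.62 to 0.32 for Chgb, -0.048 to 0.39 for Scg2, -0.27 to 0.36 for Pcsk1, -1.23 to 0.19 for Pcsk2 and -0.97 to 0.44 for Cpe. Interactions ran from -0.089 to 0.91 for Chga, -3.51 to 0.11 for Chgb, -0.96 to 0.63 for Scg5, -1.24 to 0.75 for Pcsk1, -2.68 to 0.56 for Cpe and -1.19 to 1.03 for Syp. Genes below 1 CPM have no level here.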

Other observations

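Hormones and amine-synthesis enzymes of endocrine cells were measured beside the granule genes. Of the 5 above the floor in at least 2 IQ3pos libraries, 4 fell in IQ3pos in WT and 3 in R122C (limma). Of all 13773 genes above that floor, 0.726% fell in WT and 0.225% in R122C. The other 7 of the 12 hormones and enzymes tested passed the filter on low values only through IQ3neg. The summed level of all 16 in the list was 9037 to 17212 CPM in IQ3neg and 190.7 to 416.4 CPM in IQ3pos. Sst, which encodes somatostatin, was at 12.07 to 13.06 log2 CPM in WT IQ3neg and 5.95 to 6.86 in WT IQ3pos (-5.97 ± 0.371 SE, adjusted p = 2.94e-05, limma). Hdc, which encodes the enzyme that makes histamine in enterochromaffin-like cells, was at 8.67 to 9.88 in WT IQ3neg and 3.77 to 4.23 in WT IQ3pos (-5.03 ± 0.569, adjusted p = 0.00141).

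Of 5 transcription factors of endocrine cells above the floor in at least 2 IQ3pos libraries, St18 alone fell in WT and none passed in R122C. The other 11 of 16 tested passed the filter only through IQ3neg, Rfx6 and Pax6 among them. St18, a zinc finger factor, was at 5.62 to 6.44 log2 CPM in WT IQ3neg and 0.62 to 1.88 in WT IQ3pos (-4.74 ± 0.591 SE, adjusted p = 0.00224, limma). Rest, the repressor that binds RE1, was at 2.55 to 5.20 in IQ3pos and 2.83 to 4.70 in IQ3neg, and its WT difference of 0.17 ± 0.755 did not pass (adjusted p = 0.931).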
